A study of Mus musculus with 18 samples.

Results

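The expression of 10 genes, most of which encode proteins of the extracellular matrix, was followed through the sorted macrophages of the mouse synovium, the tissue that lines the joint. The genes were *Vcan*, *Sparc*, *Prg4*, *Edil3*, *Olfml3*, *Fn1*, *Mamdc2*, *Emp1*, *Col1a1* and *Col3a1*, 10 of the 24421 gene symbols counted in each library. The 10 genes were taken by symbol, and several were selected on their measured differences between the macrophage subsets in these libraries, so levels between subsets are given as a description with no test. All 10 passed the filter on low counts, which kept 10550 genes. The 18 libraries came from adult C57BL/6 wild-type mice. The sorted subsets were LYVE1+CX3CR1+ cells without MHCII and Ly6C, MHCII+CD11c- cells and MHCII+CD11c+ cells. For each subset 3 libraries came from untreated animals and 3 from animals given immune complexes (IC) of fluorescent ovalbumin and rabbit antibody intravenously 8 h earlier. Every library, untreated or not, was made from cells freed from perfused synovium with collagenase and sorted, and it pooled several legs. The labels do not tie libraries of different subsets to the same mice, so p-values measure the spread between pooled libraries.

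The matrix holds fibrillar collagens, proteoglycans and adhesive glycoproteins. Matricellular proteins are secreted into it and act on cells more than they bear load. In the joint, fibroblasts of the lining and sublining make most of this matrix, and lining cells secrete lubricin, the product of *Prg4*. Macrophages and monocytes are known to transcribe some of these genes themselves, above all fibronectin and versican.

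Library totals ranged from 245903 to 2172358 counts, with a median of 1526180. The smallest were replicates 2 and 1 of the MHCII+CD11c- group with IC, with 245903 and 381217 counts. Levels are given as CPM, counts scaled to a common library size with TMM factors, and 3 counts, taken as the floor, were worth 3.40 CPM in the first untreated MHCII+CD11c- library and 1.51 CPM in the first untreated MHCII+CD11c+ library. All 12 genes of a macrophage list had counts in every library, and their summed level ranged from 8768 to 19221 CPM. In untreated cells it was 15561 to 16024 CPM in LYVE1+CX3CR1+ cells and 11956 to 13917 CPM in MHCII+CD11c- cells. It was 8768 to 9446 CPM in untreated MHCII+CD11c+ cells. In untreated cells the sort markers *Lyve1* and *Itgax* followed the labels. The *Lyve1* mean was 2372 CPM in untreated LYVE1+CX3CR1+ cells, 796 CPM in MHCII+CD11c- cells and 378 CPM in MHCII+CD11c+ cells. The *Itgax* mean, for CD11c, was 1.71, 6.02 and 269 CPM in the same order. A list of 9 sort genes, led by *H2-Ab1*, *H2-Aa* and *H2-Eb1*, summed to 11249 to 11692 CPM in untreated MHCII+CD11c- cells. With IC it summed to 9298, 6186 and 9388 CPM there. The second value lay within the 6012 to 6287 CPM of LYVE1+CX3CR1+ cells with IC.

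Promoters are shown for 3 of the genes whose level was highest in LYVE1+CX3CR1+ cells, because the RefSeq promoter table (GRCm38.p6) holds their start sites. The table matched 5 of the 10 genes. Both strands of the 250 bases before each start were searched for the AP-1 site TGANTCA, the GC box GGGCGG, the TATA box TATAAA, the CCAAT box CCAAT, the E-box CACGTG and the CRE site TGACGTCA. Stretches of at most 30 bases around the matches are printed 5′ to 3′ on the strand of the gene, with the matching letters in capitals. CCGCCC and ATTGG are the GC box and the CCAAT box read on the other strand.
*Vcan*, 219 bases before the start, chr13:89742716-89742741, minus strand: tagcagcccaGGGCGGggaagagggg
*Vcan*, 103 bases before the start, chr13:89742601-89742625, minus strand: cccccagccgATTGGtacttctcat
*Vcan*, 10 bases before the start, chr13:89742513-89742532, minus strand: gagctcctttCCGCCCctcc
*Olfml3*, 19 bases before the start, chr3:103738002-103738026, minus strand: gaggccCCGCCCCCGCCCCGCCCcc
*Emp1*, 145 bases before the start, chr6:135362776-135362802, plus strand: tctgtgtgtcTGAGTCAgagggagcta
*Emp1*, 25 bases before the start, chr6:135362896-135362922, plus strand: aaatccagacTGATTCAtagaaactcc
The *Olfml3* stretch holds 3 GC boxes, of which the last 2 share 1 base. Among all 32851 promoters of the table, 32.7% held a GC box, 33.8% a CCAAT box and 6.75% an AP-1 site. The *Vcan* and *Emp1* stretches lie inside the gene spans given below, so the starts used for them are not the outermost annotated starts. The *Emp1* sites precede the first of its 2 starts in the table. The windows of its second start and of *Sparc* held none of the 6 motifs, which says only that these letters are not there, and that of *Col3a1* held a TATA box, which 12.4% of promoters held.

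*Vcan*, *Sparc*, *Olfml3* and *Emp1* shared 1 order in untreated mice and after IC: highest in LYVE1+CX3CR1+ cells, lower in MHCII+CD11c- cells and lowest in MHCII+CD11c+ cells. For each of the 4, no 2 subsets overlapped within a treatment. The macrophage list had the same order in untreated cells, without overlap, and its part in these levels was not tested. With IC its sums overlapped between MHCII+CD11c- cells, at 10377 to 14755 CPM, and MHCII+CD11c+ cells, at 10662 to 11506 CPM. Bulk libraries cannot tell fewer cells with a transcript from less transcript per cell, here or in any result that follows.

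*Vcan* (chr13:89655309-89743027) encodes versican, a large chondroitin sulfate proteoglycan that binds hyaluronan. The 3 untreated LYVE1+CX3CR1+ libraries held 469, 501 and 582 CPM. The untreated MHCII+CD11c- libraries held 67.4, 77.0 and 99.1 CPM, and the MHCII+CD11c+ libraries 11.0, 11.8 and 13 CPM. The first group mean was thus 6.37 times the second and 43.2 times the third, the steepest gradient among these 4 genes in untreated cells. With IC the same ratios were 3.53 and 9.29, and the ratio of LYVE1+CX3CR1+ to MHCII+CD11c+ cells was larger for *Olfml3*, at 14.4, and *Sparc*, at 10.4.

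*Sparc* (chr11:55394159-55420080) encodes osteonectin, a matricellular protein that binds collagen and calcium. Its untreated levels were 1013, 954 and 719 CPM in LYVE1+CX3CR1+ cells, 351, 132 and 191 CPM in MHCII+CD11c- cells, and 38.4, 55.2 and 37.1 CPM in MHCII+CD11c+ cells. The mean in LYVE1+CX3CR1+ cells was 3.98 and 20.6 times the other means. *Olfml3* (chr3:103735394-103738001) encodes a secreted olfactomedin-domain glycoprotein. It was at 876, 690 and 801 CPM in untreated LYVE1+CX3CR1+ cells, at 155, 134 and 202 CPM in MHCII+CD11c- cells, and at 67.2, 35.5 and 28.0 CPM in MHCII+CD11c+ cells. Its mean was 4.82 and 18.1 times higher in the first subset than in the other two.

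*Emp1* (chr6:135362550-135383173) encodes epithelial membrane protein 1, a membrane protein with 4 passes related to PMP22. It was high in every library. The untreated values were 2169, 2200 and 2233 CPM in LYVE1+CX3CR1+ cells, 945, 976 and 1086 CPM in MHCII+CD11c- cells and 571, 490 and 483 CPM in MHCII+CD11c+ cells. Its gradient was the shallowest of the 4, with ratios of 2.20 and 4.28 untreated and 1.67 and 3.36 with IC. Its libraries within a group were close together: the untreated LYVE1+CX3CR1+ mean was 2201 ± 31.8 CPM (SD, n = 3).

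*Edil3* (chr13:88821472-89323225) encodes DEL-1, a secreted integrin ligand. It lies 332083 bases from *Vcan* on chromosome 13, with *Hapln1*, which encodes a hyaluronan link protein, between them. *Hapln1* had no count in any library. *Edil3* itself was rare. The untreated LYVE1+CX3CR1+ libraries had 17, 19 and 21 counts (11.5, 11.9 and 11.3 CPM), and the untreated libraries of the other subsets had 3 counts or fewer each.

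**Figure D1:**
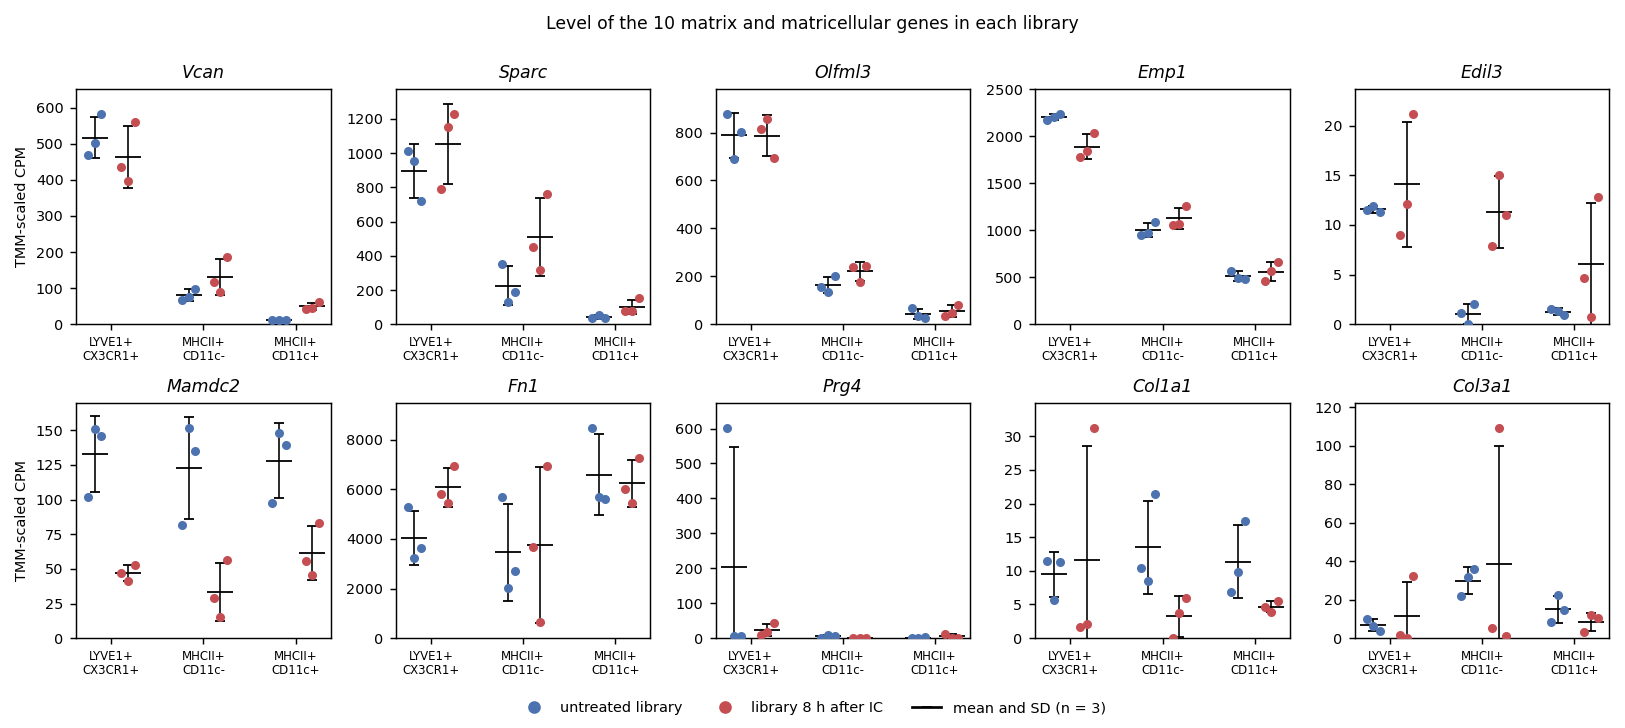
Level of each of the 10 genes in TMM-scaled CPM (y axes, linear from 0, a scale for each gene) by subset (x axes), with 1 point per library and the mean and SD of 3 libraries per group; the lower arm of an SD is cut at 0. *Vcan*, *Sparc*, *Olfml3* and *Emp1* step down from LYVE1+CX3CR1+ to MHCII+CD11c+ cells, *Mamdc2* is lower with IC in each subset, and *Prg4* rests on 1 library at 601 CPM.

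Counted over all members, 5 of the 10 genes were higher in untreated LYVE1+CX3CR1+ than in untreated MHCII+CD11c- cells with no overlap, beside 14.4% of all genes tested. Against untreated MHCII+CD11c+ cells the count was 6 of 10, beside 19.8%. With IC the counts were 5 of 10, beside 14.1%, and 4 of 10, beside 17.7%. The genes were chosen by this contrast, so nothing is read from these shares.

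*Fn1* and *Mamdc2* did not follow this order. *Fn1* (chr1:71585473-71653280) encodes fibronectin, the adhesive glycoprotein that cells bind through integrins. Its levels were 5277, 3235 and 3615 CPM in untreated LYVE1+CX3CR1+ cells, 5688, 2016 and 2689 CPM in MHCII+CD11c- cells and 8463, 5689 and 5624 CPM in MHCII+CD11c+ cells. All 3 MHCII+CD11c+ libraries were above the LYVE1+CX3CR1+ libraries, and the MHCII+CD11c- libraries overlapped both. The untreated groups were in the order MHCII+CD11c+, LYVE1+CX3CR1+, MHCII+CD11c-, and the 2 lower groups did not differ beyond their spread. *Mamdc2* (chr19:23302609-23448497) encodes a secreted proteoglycan with MAM domains. It was alike in the 3 untreated subsets, with means of 133 ± 27.1 CPM in LYVE1+CX3CR1+ cells, 123 ± 36.7 CPM in MHCII+CD11c- cells and 128 ± 27.2 CPM in MHCII+CD11c+ cells (SD, n = 3 each).

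Levels of different genes can be compared only per length, here per kb of the longest transcript with a RefSeq match. In untreated LYVE1+CX3CR1+ cells *Emp1* was first, at 796 CPM per kb, followed by *Fn1* at 486 and *Sparc* at 389 CPM per kb. *Vcan*, whose transcript of 12427 bases was the longest, was at 41.6 CPM per kb, close to *Mamdc2* at 38.9 CPM per kb. *Edil3*, *Col1a1* and *Col3a1* were at 2.17, 1.60 and 1.21 CPM per kb. In untreated MHCII+CD11c+ cells *Fn1* was first, at 793 CPM per kb, then *Emp1* at 186, *Mamdc2* at 37.5 and *Sparc* at 18.9 CPM per kb, while *Vcan* was at 0.963 CPM per kb. The annotated length of *Olfml3* differs between GENCODE (5465 bases, used here) and the shorter RefSeq gene, so its 144 CPM per kb in LYVE1+CX3CR1+ cells is uncertain.

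*Prg4* (chr1:150449412-150466221) encodes lubricin, the lubricating proteoglycan of joint surfaces. The first untreated LYVE1+CX3CR1+ library held 892 counts, 601 CPM, and the other 2 held 9 and 14 counts, 5.64 and 7.54 CPM. That library alone held 82.2% of the 1085 *Prg4* counts of the experiment. Before TMM scaling this was 578 CPM, with a 95% Wilson interval of 541 to 617 CPM that covers counting error only. The other 17 libraries ranged from 0 to 42.7 CPM, and the highest of them was the third LYVE1+CX3CR1+ library with IC, beside 9.59 and 17.4 CPM in that group. All 3 MHCII+CD11c- libraries with IC had 0 counts. At the depth of those libraries, the largest of which had 973951 counts, low levels could not be detected.

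*Prg4* overlaps *Tpr*, which encodes a nuclear pore protein, in the annotation, and reads on overlapping genes cannot be told apart without strand. *Tpr* was at 123 CPM in the library with high *Prg4* and at 140 and 157 CPM in the other 2 of that group. The markers of lining fibroblasts in the same library were low in absolute level. Their sum over 10 genes was 39.8 CPM, beside 17.6 and 21.5 CPM in the other 2 libraries, and came from *Hbegf* with 21 counts, *Sema5a* with 15, *Tspan15* with 10, *Clic5* with 9 and 4 genes with 1 count each. *Cd55* and *Rspo2* had none. The pan-fibroblast list without *Gsn* and *Pdpn* was at 41.8 CPM in that library and at 30.7 and 20.5 CPM in the other two. Within the group both lists were thus highest in the library that was highest for *Prg4*, and their part in the result was not tested.

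*Col1a1* (chr11:94936224-94953042) and *Col3a1* (chr1:45311538-45349706) encode the main chains of type I and type III collagen, the fibrillar collagens of fibroblasts. Both were near the floor. *Col1a1* had 0 to 65 counts and *Col3a1* 0 to 67 counts per library. Untreated means of *Col1a1* were 9.47 ± 3.31, 13.5 ± 6.96 and 11.4 ± 5.42 CPM in LYVE1+CX3CR1+, MHCII+CD11c- and MHCII+CD11c+ cells, with overlap of all 3 groups. *Col3a1* was lower in untreated LYVE1+CX3CR1+ cells, at 10.1, 6.27 and 3.77 CPM, than in MHCII+CD11c- cells, at 22.1, 31.8 and 35.8 CPM. The untreated MHCII+CD11c+ libraries, at 8.41, 22.4 and 14.5 CPM, overlapped both. The pan-fibroblast sum without *Gsn* and *Pdpn* had the same pattern. It was 20.5 to 41.8 CPM in untreated LYVE1+CX3CR1+, 54.6 to 83.1 CPM in MHCII+CD11c- and 24.2 to 62.5 CPM in MHCII+CD11c+ cells. Its part in the *Col3a1* levels was not tested.

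With IC, *Col1a1* was at 0, 3.77 and 6.01 CPM in MHCII+CD11c- cells and at 4.63, 3.93 and 5.48 CPM in MHCII+CD11c+ cells, below all untreated libraries of the same subset. Neither change was called (log2 fold change -1.77 ± 1.0 and -1.26 ± 0.83 (SE), adjusted p = 0.43 and 0.71 in edgeR's test). *Col3a1* with IC was at 3.09, 11.8 and 10.4 CPM in MHCII+CD11c+ cells, overlapping the untreated range. Elsewhere single libraries carried the levels. The third LYVE1+CX3CR1+ library with IC held 65 *Col1a1* and 67 *Col3a1* counts, 31.2 and 32.2 CPM, and the other 2 libraries held at most 4 counts of either. Its pan-fibroblast sum without *Gsn* and *Pdpn* was 39.9 CPM, beside 5.64 and 5.27 CPM. Of the MHCII+CD11c- libraries with IC the shallowest, replicate 2, held 29 *Col3a1* counts, 109 CPM, beside 2 and 1 counts, and its pan-fibroblast sum was 105 CPM, beside 20.9 and 15 CPM. *Col1a1* had 1 count there. In both groups the library highest for *Col3a1* was highest for the pan-fibroblast list, which holds *Col1a2* but neither collagen of the 10 genes, and its part in the result was not tested.

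**Figure D2:**
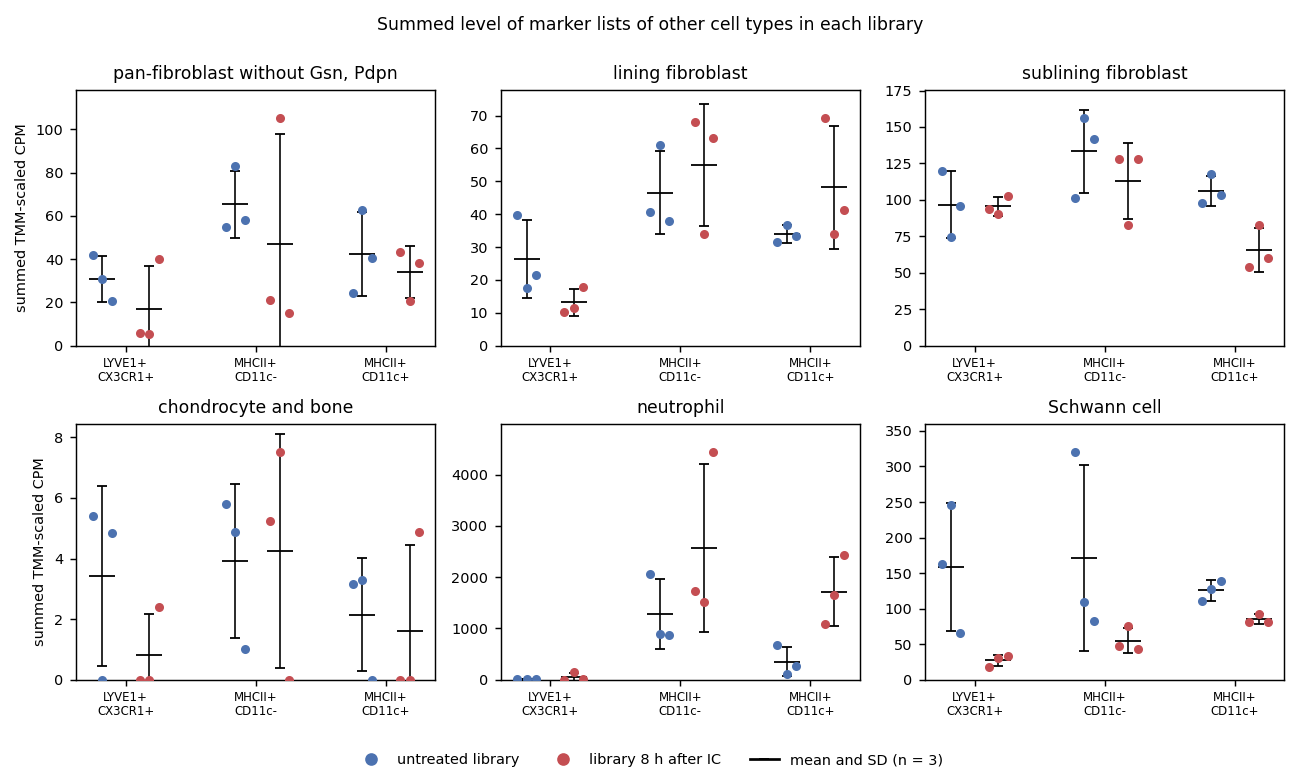
Summed level of 6 marker lists in TMM-scaled CPM (y axes, linear from 0) by subset (x axes), with 1 point per library and the mean and SD of 3 libraries per group; the lower arm of an SD is cut at 0. The chondrocyte and bone list stays at or below 7.53 CPM, and the neutrophil list is near 0 in untreated LYVE1+CX3CR1+ cells and reaches 4446 CPM in an MHCII+CD11c- library with IC.

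Across the experiment the fibroblast lists were low. The 16 pan-fibroblast genes summed to 297 to 465 CPM, of which *Gsn*, an actin-severing protein that is not particular to fibroblasts, made a mean of 292 CPM and *Pdpn* 44.4 CPM. Without these 2 genes, which were set apart after their values were seen, the sum was 5.27 to 105 CPM. This sum was led by *Col1a2* at a mean of 11.7 CPM, *Dcn* at 4.60 CPM and *Fstl1* at 3.66 CPM. *Col1a2* reached 29 counts in a library and *Dcn* 26. *Pdgfra* had at most 5 counts in any library, *Lum* at most 2 and *Thy1* at most 6. The 10 lining genes summed to 10.2 to 69.4 CPM, led by *Hbegf* at 18.9 CPM and *Cd55* at 9.06 CPM. In untreated mice the lining sum was 17.6 to 39.8 CPM in LYVE1+CX3CR1+ cells and 37.8 to 61.1 CPM in MHCII+CD11c- cells, with overlap, and 31.5 to 36.8 CPM in MHCII+CD11c+ cells. The part of lining cells in the levels of the 10 genes was not tested. The 10 sublining genes summed to 54.0 to 156 CPM, of which *Col14a1*, also in the collagen list, made a mean of 44.6 CPM. The 13 chondrocyte and bone genes summed to 0 to 7.53 CPM, and *Matn1* and *Lect1* had no count at all. The mural list of 9 genes was, like *Vcan*, *Sparc*, *Olfml3* and *Emp1*, highest in LYVE1+CX3CR1+ cells, at 396 to 536 CPM untreated. Unlike these genes, it overlapped between the other untreated subsets, at 119 to 138 CPM in MHCII+CD11c- cells and 32.8 to 156 CPM in MHCII+CD11c+ cells. With IC the list summed to 585 to 656 CPM in LYVE1+CX3CR1+ cells, above its untreated range. Nearly all of it was *Cspg4*, the NG2 proteoglycan, and without *Cspg4*, *Acta2* and *Tagln*, set apart after their values were seen, it was 0 to 7.89 CPM in all libraries.

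The question of the IC comparison was whether circulating immune complexes change these genes within a subset. One of the 10 genes was called in each subset with edgeR's quasi-likelihood test at an adjusted p under 0.05. The same test called 0.464% of all 10550 genes in LYVE1+CX3CR1+ cells, 1.06% in MHCII+CD11c- cells and 0.673% in MHCII+CD11c+ cells. *Mamdc2* fell in both of the first subsets, and *Vcan* rose in the third. At an unadjusted p under 0.05 the counts were 2, 4 and 4 of 10. The median log2 fold change of the 10 genes was 0.12, 0.15 and 0.26, beside -0.02, -0.01 and -0.01 for all genes.

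*Vcan* in MHCII+CD11c+ cells went from 11.0, 11.8 and 13 CPM (21, 18 and 27 counts) to 43.2, 45.6 and 60.9 CPM (28, 58 and 100 counts) with IC. The lowest library with IC was over the highest untreated one. The mean rose 4.17-fold, and the fitted log2 fold change was 2.08 ± 0.27 (SE) with an adjusted p of 0.00013 in edgeR's quasi-likelihood test. Leaving out each of the 6 libraries gave log2 fold changes from 1.87 to 2.15, with adjusted p of at most 0.0058. Even so, the level with IC stayed below that of the untreated MHCII+CD11c- libraries, whose lowest value was 67.4 CPM.

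In MHCII+CD11c- cells with IC, *Vcan* was at 118, 90.4 and 186 CPM and overlapped the untreated range, with a log2 fold change of 0.77 ± 0.23 (SE) and an adjusted p of 0.11 in edgeR's test. Without the second library with IC, of 245903 counts, the log2 fold change was 0.94 and the adjusted p was 0.025. *Vcan* in LYVE1+CX3CR1+ cells with IC was at 435, 396 and 560 CPM, and the log2 fold change was -0.16 ± 0.19 (SE), with an adjusted p of 0.91.

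Of the marker lists of other cell types, some also differed with IC in MHCII+CD11c+ cells. The neutrophil list (9 of its 10 genes matched a row) summed to 113 to 676 CPM in untreated libraries and to 1077 to 2425 CPM with IC, and its leading genes over all libraries were *S100a9*, *Ngp* and *Ltf*. It was higher still in MHCII+CD11c- cells, at 880 to 2060 CPM untreated and 1525 to 4446 CPM with IC. Where *Vcan* was highest, in LYVE1+CX3CR1+ cells, it was 6.74 to 16.2 CPM untreated and 1.13 to 154 CPM with IC. The monocyte list without *Fn1* and *Vcan*, 7 genes led by *F13a1*, overlapped in MHCII+CD11c+ cells, at 2516 to 3190 CPM untreated and 2648 to 3599 CPM with IC. The dendritic cell list of 10 genes, led by *Cd209a*, was lower with IC without overlap. It was at 308 to 529 CPM untreated and 228 to 239 CPM with IC. Also lower without overlap were the sublining list, at 97.7 to 118 and 54.0 to 82.6 CPM, and the Schwann list, at 110 to 138 and 81.6 to 92.8 CPM. The skeletal muscle list was lower too, at 13.7 to 152 and 6.09 to 12.3 CPM. The macrophage list was higher with IC without overlap, at 8768 to 9446 CPM untreated and 10662 to 11506 CPM with IC. The part of these lists in the *Vcan* result was not tested.

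The IC response of *Vcan* differed between LYVE1+CX3CR1+ and MHCII+CD11c+ cells. The difference of the 2 log2 fold changes was -2.23 ± 0.33 (SE), with an adjusted p of 0.0050 in edgeR's test, and *Vcan* was the single gene called of 10550 (0.00948%). The call was lost without the third MHCII+CD11c+ library with IC, where the difference was -2.02 and the adjusted p 0.12. Between MHCII+CD11c+ and MHCII+CD11c- cells the difference was 1.31 ± 0.36 (SE), with an adjusted p of 0.68; none of the 10 genes was called there, beside 0.00948% of all genes. Between LYVE1+CX3CR1+ and MHCII+CD11c- cells no gene at all was called (0%). In these 2 comparisons 1 and 3 of the 10 genes had an unadjusted p under 0.05, and DESeq2 called 0 of them. In the second, DESeq2 gave adjusted p for only 1246 genes, and a gene without one could not be called.

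*Mamdc2* was lower with IC in every subset. In LYVE1+CX3CR1+ cells it went from 102, 151 and 146 CPM to 47.4, 41.1 and 52.8 CPM, in MHCII+CD11c- cells from 81.4, 152 and 135 CPM to 28.8, 15.1 and 56.1 CPM, and in MHCII+CD11c+ cells from 97.2, 148 and 139 CPM to 55.5, 45.6 and 83.5 CPM. In none of the 3 subsets did the treated and untreated libraries overlap. It fell by 1.50 on the log2 scale (SE 0.28, adjusted p = 0.0099 in edgeR's test) in LYVE1+CX3CR1+ cells and by 1.65 (SE 0.33, adjusted p = 0.012) in MHCII+CD11c- cells. In MHCII+CD11c+ cells the log2 fold change was -1.03 (SE 0.28), with an adjusted p of 0.10 that missed the threshold. It passed by DESeq2 (-1.04, adjusted p = 0.048), with only the libraries compared (-1.02, adjusted p = 0.043), with no filter on low counts (-1.03, adjusted p = 0.0033) and with the replicate number as a block (-1.07, adjusted p = 0.042). The 3 responses were not found to differ: in the 3 tests of their differences the adjusted p was 0.97, 1.0 and 0.85.

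These calls of *Mamdc2* depended on single libraries. In LYVE1+CX3CR1+ cells the adjusted p rose to 0.066 and 0.073 without untreated replicates 2 and 3, and to 0.075 and 0.11 without IC replicates 1 and 2, with log2 fold changes from -1.65 to -1.39 over the 6 omissions. In MHCII+CD11c- cells it rose to 0.058 and 0.051 without untreated replicates 2 and 3 and to 0.067 without IC replicate 1, with log2 fold changes from -2.44 to -1.42. The counts with IC in that subset were 11, 4 and 56. Schwann cell markers were also lower with IC: the 8 genes, led by *Mbp*, summed to 66.2 to 246 CPM untreated and 18.6 to 33.1 CPM with IC in LYVE1+CX3CR1+ cells, to 82.7 to 321 and 43.1 to 75.3 CPM in MHCII+CD11c- cells, and to 110 to 138 and 81.6 to 92.8 CPM in MHCII+CD11c+ cells. The dendritic cell list of 10 genes was lower with IC in each subset too, without overlap. It was at 6.74 to 7.54 CPM untreated and 2.11 to 3.38 CPM with IC in LYVE1+CX3CR1+ cells. In MHCII+CD11c- cells it was at 136 to 191 and 83.7 to 132 CPM, and in MHCII+CD11c+ cells at 308 to 529 and 228 to 239 CPM. The part of these lists in the *Mamdc2* result was not tested.

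*Sparc* had the next largest fitted changes among the genes with counts in every library. In MHCII+CD11c- cells with IC it was at 450, 320 and 762 CPM, and the first untreated library, at 351 CPM, lay above the lowest of them. The log2 fold change was 1.22 ± 0.31 (SE), with an adjusted p of 0.056 in edgeR's test that missed the threshold. Without the second library with IC, of 245903 counts, it was 1.44 with an adjusted p of 0.013, and without the first untreated library 1.68 with an adjusted p of 0.015. In MHCII+CD11c+ cells *Sparc* was at 75.6, 76.3 and 152 CPM with IC, above all 3 untreated libraries, with a log2 fold change of 1.26 ± 0.34 (SE) and an adjusted p of 0.10. Libraries of LYVE1+CX3CR1+ cells with IC held 788, 1150 and 1226 CPM, with a log2 fold change of 0.24 ± 0.29 (SE) and an adjusted p of 0.91.

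**Figure D3:**
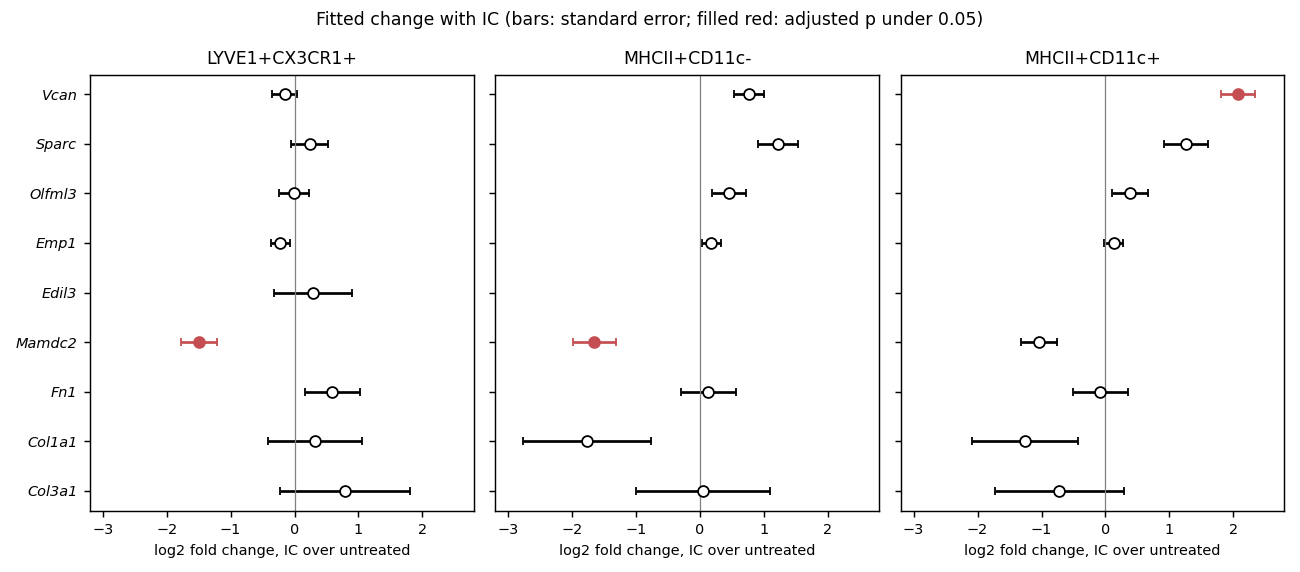
Fitted log2 fold change of IC over untreated (x axis) for 9 of the 10 genes (rows) in each subset (panels), with the standard error as bars and filled red points where the adjusted p was under 0.05. *Mamdc2* is called at -1.50 and -1.65 in the first 2 panels and *Vcan* at 2.08 in the third; *Prg4*, and *Edil3* outside LYVE1+CX3CR1+ cells, are left out because a group was at or near the floor or rested on 1 library.

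The remaining members were not called in any subset by this test. *Emp1* was at 1778, 1846 and 2037 CPM with IC in LYVE1+CX3CR1+ cells, all below the untreated libraries, and the log2 fold change was -0.22 ± 0.14 (SE), with an adjusted p of 0.75 in edgeR's test. In MHCII+CD11c- cells *Emp1* was at 1059, 1069 and 1258 CPM and in MHCII+CD11c+ cells at 460, 565 and 659 CPM, and both ranges overlapped the untreated ones. *Olfml3* with IC was at 814, 855 and 693 CPM, at 241, 177 and 245 CPM and at 35.5, 46.4 and 82.2 CPM in LYVE1+CX3CR1+, MHCII+CD11c- and MHCII+CD11c+ cells, overlapping the untreated range in each. *Fn1* with IC was at 5820, 5451 and 6941 CPM in LYVE1+CX3CR1+ cells, all above the untreated libraries, with a log2 fold change of 0.59 ± 0.43 (SE) and an adjusted p of 0.80. It was called when only these libraries entered the fit (0.59, adjusted p = 0.015 in edgeR's test) and with no filter on low counts (0.61, adjusted p = 0.012).

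*Fn1* spread most in MHCII+CD11c- cells with IC, at 3671, 663 and 6949 CPM. The lowest was the library of 245903 counts. In MHCII+CD11c+ cells with IC it was at 6007, 5428 and 7263 CPM, within the untreated range but for its lowest library.

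*Edil3* in MHCII+CD11c- cells had 1, 0 and 2 counts untreated and 3, 4 and 11 counts with IC, or 7.84, 15.1 and 11.0 CPM. The untreated group was at the floor, so no fold is given, and the adjusted p was 0.10 in edgeR's test. In MHCII+CD11c+ cells it had 3, 2 and 2 counts untreated and 3, 1 and 21 with IC, the last in 1 library. It was at 9.02, 12.1 and 21.1 CPM in LYVE1+CX3CR1+ cells with IC, around the untreated values. *Prg4* in LYVE1+CX3CR1+ cells had a fitted log2 fold change of -3.11 ± 0.99 (SE), with an adjusted p of 0.24, and the sign depended on 1 library: without the first untreated library it was 1.80. With no filter on low counts the same change was called, at -3.08 with an adjusted p of 1.0e-19 in edgeR's test, with the same library in the fit.

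Beyond the 10 genes, 178 others were listed by role, of which 167 had a count and 56 passed the filter. They are called matrix genes below, though 9 of them, 5 tested, are relatives of the 10 genes by name or family. Not all of these relatives encode matrix proteins. With IC, 1 of the 56 was called in LYVE1+CX3CR1+ cells (1.79% beside 0.464% of all genes), 3 in MHCII+CD11c- cells (5.36% beside 1.06%) and 1 in MHCII+CD11c+ cells (1.79% beside 0.673%). *Srgn*, which encodes serglycin, the proteoglycan of secretory granules in blood cells, rose from 652, 488 and 571 CPM to 1318, 1283 and 1191 CPM in LYVE1+CX3CR1+ cells (log2 fold change 1.15 ± 0.23 (SE), adjusted p = 0.015 in edgeR's test). It also rose in MHCII+CD11c- cells, from 499, 344 and 353 CPM to 855, 670 and 1072 CPM (1.13 ± 0.23, adjusted p = 0.012). In MHCII+CD11c- cells *Tgm2*, a transglutaminase that cross-links matrix proteins, rose from 123, 109 and 151 CPM to 353, 282 and 353 CPM (adjusted p = 0.019). *P3h2*, a prolyl 3-hydroxylase of collagens, fell there from 20.9, 68.5 and 21.5 CPM to 0, 7.53 and 4.01 CPM (adjusted p = 0.027). Its libraries with IC held 0, 2 and 4 counts, near the floor. The floor of 3 counts was worth 7.87 CPM in the first and 12.2 CPM in the second. *Plod1*, a lysyl hydroxylase of collagens, rose in MHCII+CD11c+ cells, from 125, 80.9 and 85.4 CPM to 170, 171 and 191 CPM (adjusted p = 0.029). Leaving out single libraries gave 3 to 14 calls in all in place of 5. The highest count was reached without the second MHCII+CD11c- library with IC, and 9 were called without the first untreated MHCII+CD11c+ library. The count was 3 without untreated MHCII+CD11c- replicates 2 or 3 or IC replicates 1 or 3 of that subset. None of the 56 was called for a difference of IC response between subsets, with 9, 4 and 8 genes at an unadjusted p under 0.05 and 0 called by DESeq2. For LYVE1+CX3CR1+ against MHCII+CD11c- and MHCII+CD11c+ cells DESeq2 gave adjusted p for only 1246 and 5075 genes, which limits what it could call.

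Between subsets, more of the listed matrix genes were called higher than lower in LYVE1+CX3CR1+ cells. Over all genes more were called lower than higher, 751 against 456 relative to untreated MHCII+CD11c- cells and 1303 against 1000 relative to untreated MHCII+CD11c+ cells. With IC it was 681 against 350 and 1215 against 866. The lists were chosen with earlier results of these data known. Some genes passed the filter only through libraries where they were high. *Ctgf* had 27, 46 and 33 counts in untreated LYVE1+CX3CR1+ libraries and at most 5 in any MHCII+ library. *Pcolce* had 34, 24 and 17 in untreated MHCII+CD11c+ libraries and at most 2 in untreated LYVE1+CX3CR1+ libraries. *Thbs2* had 16 to 48 counts in LYVE1+CX3CR1+ libraries and at most 5 in any MHCII+ library. *Lama3* had 18, 11 and 23 counts in untreated LYVE1+CX3CR1+ libraries and 1, 0 and 0 in untreated MHCII+CD11c- libraries. Nothing is therefore read from this direction or from the shares that follow. Against untreated MHCII+CD11c- cells, 10 of the 56 were higher and 6 lower, 28.6% in all beside 11.4% of all genes. Against untreated MHCII+CD11c+ cells 20 were higher and 4 lower, 42.9% beside 21.8%. With IC, 8 were higher and 3 lower against MHCII+CD11c- cells, 19.6% beside 9.77%, and 18 were higher and 4 lower against MHCII+CD11c+ cells, 39.3% beside 19.7%. Between untreated MHCII+CD11c+ and MHCII+CD11c- cells, 2 were higher and 4 lower in the former (10.7% beside 3.49%), and with IC 1 was higher and 3 were lower (7.14% beside 2.84%). The median log2 difference of the 56 genes between untreated LYVE1+CX3CR1+ and MHCII+CD11c+ cells was 0.54, beside -0.02 for all genes. Of the calls in LYVE1+CX3CR1+ cells, the relatives gave 2 higher and 2 lower (*Prg2* and *Prg3*) against untreated MHCII+CD11c- cells. Against untreated MHCII+CD11c+ cells they gave 2 higher, and with IC 2 higher and 1 lower against each MHCII+ subset. Between the untreated MHCII+ subsets they gave 2 lower, and with IC 0.

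Of the matricellular and adhesive glycoproteins, 11 of 19 tested genes were called between untreated LYVE1+CX3CR1+ and MHCII+CD11c+ cells, 9 of them higher in the former, 57.9% beside 21.8% of all genes. *Ctgf* and *Cyr61*, 2 CCN family proteins, were higher in untreated LYVE1+CX3CR1+ than MHCII+CD11c- cells, at means of 21.6 against 2.89 CPM and 169 against 43.7 CPM. *Thbs2*, a thrombospondin, was at 13.8 CPM in untreated LYVE1+CX3CR1+ and 1.90 CPM in untreated MHCII+CD11c+ cells. *Fgl2*, a fibrinogen-like protein of immune cells, went the other way, at 9.26, 69.4 and 151 CPM in untreated LYVE1+CX3CR1+, MHCII+CD11c- and MHCII+CD11c+ cells. With IC *Thbs1*, thrombospondin 1, was lower in LYVE1+CX3CR1+ cells, at a mean of 23.2 CPM, than in MHCII+CD11c- cells at 513 CPM and MHCII+CD11c+ cells at 373 CPM. *Lgals3*, which encodes galectin 3, was higher in untreated MHCII+CD11c+ than MHCII+CD11c- cells, at 607 against 336 CPM. *Gas6*, a ligand of the TAM receptors, was lower in MHCII+CD11c+ than MHCII+CD11c- cells with IC, at 300.0 against 533 CPM.

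Of the genes for folding and cross-linking collagen, 7 of 12 were called between untreated LYVE1+CX3CR1+ and MHCII+CD11c+ cells, 5 of them higher in the former, 58.3% beside 21.8% of all genes. *Tgm2* was at 420, 128 and 86.9 CPM in untreated LYVE1+CX3CR1+, MHCII+CD11c- and MHCII+CD11c+ cells. *Serpinh1*, the collagen chaperone HSP47, was at 272, 69.6 and 38.8 CPM with IC in the same order. *Pcolce*, which enhances procollagen processing, was lower in untreated LYVE1+CX3CR1+ cells, at 0.658 CPM against 14.7 and 13.9 CPM, while its relative *Pcolce2* was higher there, at 32.8 CPM against 3.87 CPM in MHCII+CD11c+ cells. *P3h1*, a prolyl 3-hydroxylase, was at 25.0 CPM in LYVE1+CX3CR1+ and 8.94 CPM in MHCII+CD11c+ cells with IC. In the basement membrane list 2 of 9 tested genes, 22.2%, were called in each untreated comparison with LYVE1+CX3CR1+ cells, beside 11.4% of all genes against MHCII+CD11c- cells and 21.8%, close to the list's share, against MHCII+CD11c+ cells. *Lama3*, a laminin chain, was at 10.5 CPM in untreated LYVE1+CX3CR1+ and 0.388 CPM in untreated MHCII+CD11c- cells, the latter a single count. *Lamb2*, another laminin chain, was at 42.1 CPM in untreated LYVE1+CX3CR1+ and 16.5 CPM in untreated MHCII+CD11c- cells, and *Nid2*, nidogen 2, was at 103 CPM in untreated LYVE1+CX3CR1+ and 28.8 CPM in untreated MHCII+CD11c+ cells. Of 15 fibrillar and associated collagens 3 passed the filter, and *Col14a1*, which associates with collagen fibrils, was at 76.2, 55.8 and 13.1 CPM in the 3 untreated subsets. No beaded or other collagen of 17 passed the filter. *Emilin1*, of elastic fibres, was at 52.4 CPM in untreated LYVE1+CX3CR1+ and 20.2 CPM in untreated MHCII+CD11c+ cells.

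**Figure D4:**
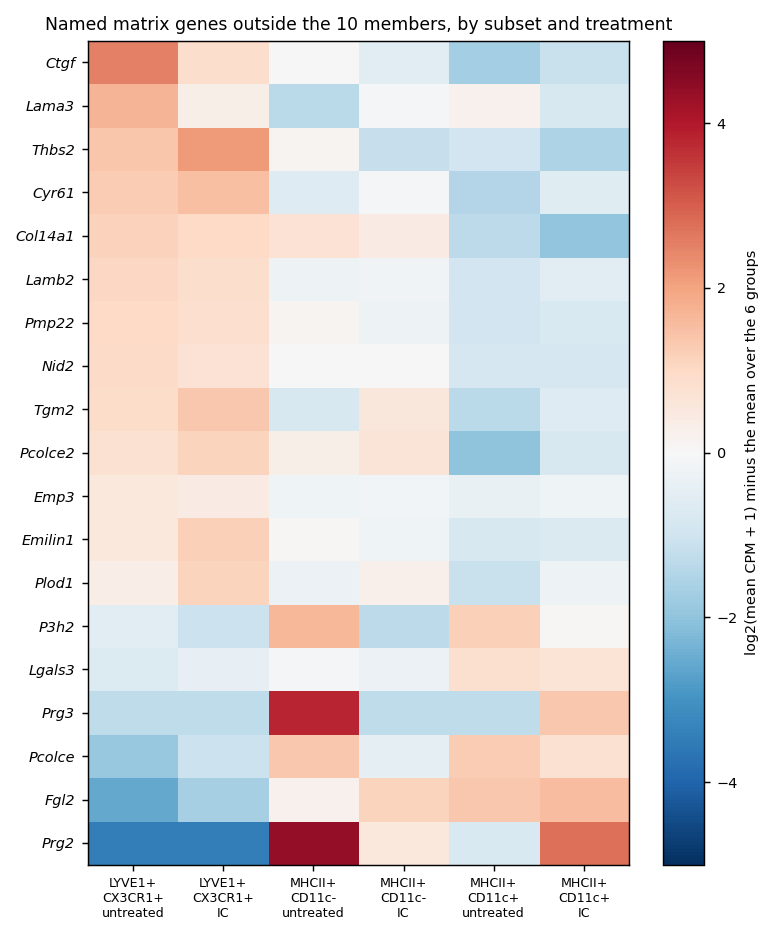
Mean level of 19 named genes of the matrix and relatives lists outside the 10 members (rows) in the 6 groups (columns), as log2(mean CPM + 1) minus the mean over the groups (colour). *Tgm2*, *Nid2* and *Lamb2* are highest in the LYVE1+CX3CR1+ groups and *Fgl2* is lowest there; the high *Prg2* mean in untreated MHCII+CD11c- cells comes from 1 library at 679 CPM.

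Relatives of the 10 genes were measured too. *Pmp22*, which encodes peripheral myelin protein 22, was at 541, 300 and 137 CPM in untreated LYVE1+CX3CR1+, MHCII+CD11c- and MHCII+CD11c+ cells, with a log2 difference of 1.98 ± 0.20 (SE) between the first and the third (adjusted p = 3.7e-08 in edgeR's test). *Emp3* was at 412 CPM in LYVE1+CX3CR1+ and 220 CPM in MHCII+CD11c+ cells. *Prg2* and *Prg3*, which share only a naming series with *Prg4* and encode granule proteins of eosinophils, were at 0 in all untreated LYVE1+CX3CR1+ libraries. In untreated MHCII+CD11c- cells *Prg2* was at 679, 6.11 and 0 CPM and *Prg3* at 98.8, 0 and 0 CPM, so that their calls there rested on 1 library.

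Genes most like each member were sought by the Pearson correlation of deviations from the group means in log2 CPM, over 18 libraries. Libraries share their depth and makeup across genes, so these values are descriptions. For *Vcan* they were *Insig1* (r = 0.90), *Alox5* (0.89) and *Ddit3* (0.89), and for *Sparc* *Snapc3* (0.88), *Prnp* (0.86) and the readthrough symbol *2310045n01rik-mef2b* (0.85). *Fn1* was most like *S100b* (0.95), *Itgb2* (0.95) and *Ezr* (0.94), and *Mamdc2* most like *Zfand2a* (0.93), *Alkbh3* (0.92) and *Anapc16* (0.91). *Olfml3* was followed by *Adgre5* (0.89), *Cspg4* (0.82) and *Tfpi* (0.80), *Emp1* by *Dpysl3* (0.85), *Pon2* (0.85) and *Rcor3* (0.84), and *Edil3* by *Nsmce2* (0.84), *Atp2b4* (0.82) and *Cd9* (0.82). For *Prg4*, where 1 library sets the value, they were *Cacnb3* (0.80), *Gm15706* (0.77) and *Prkd3* (0.75). The collagens did not lead to each other: *Col1a1* was most like *Setd5* (0.84) and *Ttf1* (0.82), and *Col3a1* most like *Morc3* (0.91), *Ahctf1* (0.89) and *Zxdc* (0.89).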

How the data were processed

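RNA from 18 sorted populations was sequenced after SMARTer stranded total RNA library preparation. Trim Galore, HISAT2 (to mm10) and featureCounts of Rsubread were the tools by which the authors trimmed, aligned and assigned reads, and they deposited raw counts per gene symbol. Versions, annotation, strand setting and duplicate handling are not given in the sources used here. Groups came from the labels. From the counts, edgeR 4.0.16 in R 4.3.3 gave TMM factors, a filterByExpr filter (minimum count 10, total 15) that kept 10550 genes, and quasi-likelihood tests over all 18 libraries in 6 groups, adjusted by Benjamini-Hochberg within a comparison and called under 0.05. Each SE is the log2 fold change divided by the root of F. The scripts were tested on simulated data. The members and lists were chosen with earlier results of these data known. All members are named; of the other matrix genes, those called with IC, and per list and subset comparison the 3 largest called differences with a mean of at least 10 CPM. Alternatives used DESeq2 1.42.0 and sva 3.50.0. A gene that the likeness rule would name is not reported here.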

Additional observations from a re-analysis of the deposited data

Results flagged for a closer look

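The IC response of *Vcan* differed between subsets by a test of the difference itself. In LYVE1+CX3CR1+ cells its log2 fold change was -0.16 ± 0.19 (SE) and in MHCII+CD11c+ cells 2.08 ± 0.27 (SE), a difference of -2.23 ± 0.33 (SE) with an adjusted p of 0.0050 in edgeR's quasi-likelihood test. All 3 MHCII+CD11c+ libraries with IC, at 43.2 to 60.9 CPM, were above the 3 untreated ones, at 11.0 to 13 CPM, while the LYVE1+CX3CR1+ libraries overlapped, at 396 to 560 CPM with IC and 469 to 582 CPM untreated. Over 20 alternatives the adjusted p ran from 7.1e-08 to 0.12. The neutrophil and macrophage marker sums were also higher with IC in MHCII+CD11c+ cells, and their part in this result was not tested.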

How the results depend on the processing

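No result changed direction past the threshold in the alternatives run. Over the 3 subsets, 3 IC changes of the 10 genes were called. There were 10 with no filter on low counts, 5 with only the libraries compared, 6 with 1 surrogate variable and 2 to 7 when single libraries were left out. The highest was reached without the second MHCII+CD11c- library with IC, which added *Sparc* and *Vcan* there and *Sparc* and *Mamdc2* in MHCII+CD11c+ cells. Without replicates 1 and 2 of MHCII+CD11c- cells with IC, the shallow ones, an alternative chosen after seeing the data, there were 6. That leaves 1 library in this arm, which is assumed to vary like the other groups, and the calls of *Sparc* and *Vcan* there rest on it. Differences of IC response went from 1 to 3 with no filter and to 0 to 1 when single libraries were left out. The other matrix genes gave 5 IC calls, and 11 by DESeq2, 24 with no filter, 16 with only the libraries compared, 8 with 1 surrogate variable, 9 without both shallow libraries and 3 to 14 when single libraries were left out. Their 0 differences of response became 4 with no filter and 1 with the pool as a block. Their 46 calls between untreated subsets and 37 with IC both became 23 when 10 counts were required in every library, which tests fewer genes. *Mamdc2* in LYVE1+CX3CR1+ cells ranged from -1.65 to -1.39 on the log2 scale when single libraries were left out. In MHCII+CD11c- cells it ranged from -2.44 to -1.42, and was -1.70 with only the libraries compared (adjusted p = 0.11 in edgeR's test) and -1.11 in the fit with that 1 library (adjusted p = 0.20). The *Vcan* difference between LYVE1+CX3CR1+ and MHCII+CD11c+ cells ranged from -2.39 to -2.02 when single libraries were left out and from -2.61 to -2.02 over all 20 alternatives. Except where fewer samples or genes entered, the cause was not tested.

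Same-numbered libraries were not treated as pairs. Over all pairs of groups the correlation of their deviations from the group means ran from -0.066 to 0.13. Between untreated LYVE1+CX3CR1+ and MHCII+CD11c+ cells it was 0.066 to 0.087, against at most -0.017 for unlike numbers. With IC it was 0.031 to 0.090 between these subsets, against at most 0.014. Between MHCII+CD11c- and MHCII+CD11c+ cells with IC it was 0.022 to 0.094, against at most 0.015. In the other pairs within a treatment, some unlike numbers exceeded the lowest same-number value. A sharing of mice was not tested. With the replicate number as a block, 4 IC changes of the 10 genes were called in place of 3, the added one being *Mamdc2* in MHCII+CD11c+ cells (-1.07, adjusted p = 0.042 in edgeR's test), and the *Vcan* difference was -2.23. Blocking changed no other call of the 10 genes. The shallow MHCII+CD11c- libraries with IC limit what can be seen there, where 3 counts were worth 12.2 CPM in the smallest. DESeq2 gave adjusted p for 1246 genes in the response difference between LYVE1+CX3CR1+ and MHCII+CD11c- cells, and the others stay without a value.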
